A study of Homo sapiens with 42 samples.

Results

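Knockdown of COPB2 with the second of 2 short hairpin RNAs was examined in bleomycin-treated IMR90 fibroblasts, with 4 libraries carrying COPB2 shRNA 2 and 4 carrying a control shRNA. These 8 libraries were chosen by their labels out of 42 in the series, and libraries with the same replicate number were treated as pairs. IMR90 is an established strain of human lung fibroblasts, so all libraries share 1 genetic background. The 8 cultures received bleomycin at 50 µg/ml for 24 h, a drug that breaks DNA and drives the cells into senescence, were kept for 7 days, and then received doxycycline at 1 µg/ml, which switches on the hairpin. Cells were collected 72 h later, at day 10, and poly(A) RNA was sequenced. The other groups used below were COPB2 shRNA 1 in bleomycin-treated IMR90 (4 libraries), COPB2 shRNA 2 and the control shRNA in IMR90 given DMSO, the solvent (4 libraries each), and the same hairpins in IMR90 ER:RAS cells given 100 nM 4OHT (3 libraries each). ER:RAS cells hold a RAS oncogene fused to an oestrogen receptor, which 4OHT activates. The fits also held COPB2 shRNA 1 in IMR90 given DMSO and in ER:RAS cells given 4OHT. They held ER:RAS cells given DMSO with the control shRNA or either COPB2 hairpin as well. Every culture received doxycycline. The labels do not say whether replicates came from separate cultures. A legend in the study's supplement calls the replicates of this knockdown independent experiments but counts fewer of them than the 4 libraries of a group here. The p-values therefore describe the spread between the libraries of each fit, part of which may be technical.

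COPB2 is a subunit of coatomer, the protein coat of COPI vesicles, which carry proteins and lipids from the Golgi back to the endoplasmic reticulum (ER) and between Golgi stacks. When proteins accumulate in the ER, 3 sensors start the unfolded protein response: PERK phosphorylates eIF2 and raises translation of the transcription factor ATF4, IRE1 splices the mRNA of the transcription factor XBP1, and ATF6 is cleaved in the Golgi. ATF4 turns on genes of amino acid synthesis and import and, with prolonged stress, the factor CHOP (gene DDIT3), while ATF6 and XBP1 turn on ER chaperones and the degradation of ER proteins. Senescent cells secrete many proteins, including the cytokines and proteases grouped under the name SASP (senescence-associated secretory phenotype), and so place a load on this pathway.

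The hairpins are shown because they define the knockdown groups compared below. Each guide strand is written 5′ to 3′ with its seed, bases 2 to 8, in capitals, followed by the matching stretch of the COPB2 mRNA with the seed match in capitals.
COPB2 shRNA 2 guide: tAATTGAAcactctaatctgca
COPB2 shRNA 2 target: tgcagattagagtgTTCAATTa
COPB2 shRNA 1 guide: tTAAATATctttacaatgctgt
COPB2 shRNA 1 target: acagcattgtaaagATATTTAa
The site of shRNA 2 is in the coding sequence, in exon 4 of 22 of COPB2, on the minus strand of GRCh37 at chr3:139097987-139098008. The site of shRNA 1 is in exon 11, also coding, at chr3:139088345-139088366. Among annotated transcripts, an exact match to the whole guide of shRNA 2 was found in 15 transcripts of 1 gene, COPB2. The seeds of the 2 guides differ. A match to the seed of shRNA 2 was present in the 3′ UTR of 2130 of 13229 genes (16.1%), whose median log2 difference was -0.10 against 0.01 in the others. Their UTRs were also longer (median 3483 against 1324 bases), and with shRNA 1, which has another seed, the same genes stood at 0.11. The seed match of shRNA 2 was in 32 of 406 genes called higher below (7.88%) and in 47 of 220 called lower (21.4%). For the seed of shRNA 1, absent from these 8 libraries, those shares were 20.7% and 38.2%, and 32.1% over the 13229 genes. The part of the seed in the changes below was not tested.

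In the 4 libraries with shRNA 2, COPB2 (ENSG00000184432) stood at 91.7, 86.1, 126 and 103 counts per 1000000 (CPM), in replicate order 1 to 4. In the 4 control libraries it stood at 422, 422, 566 and 511 CPM. The groups were far apart in every pair. The log2 fold change was -2.24 ± 0.09 (standard error), to 0.211 of the control level, with an adjusted p of 2.07e-11 in the quasi-likelihood test of edgeR over all genes. Without replicate 4 of both groups it was -2.22 (adjusted p = 5.43e-09). Knockdown with shRNA 1 in the same cells brought COPB2 to 102 ± 13.1 CPM (SD, n = 4), against 102 ± 17.5 CPM with shRNA 2, and the difference between the hairpins was -0.02 ± 0.09 (adjusted p = 0.903).

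Of the 8 other coatomer subunits measured, 1 was called higher and 0 lower in the fit of all 24 IMR90 libraries described below. A correction for transcript length and GC content, also described below, called COPG2 lower as well, and DESeq2 called COPE higher, both named after their values were seen. COPB1, which encodes beta-COP, stood at 347, 362, 561 and 537 CPM with shRNA 2 and at 270.1, 220.3, 393 and 354 CPM with the control shRNA. It was higher in all 4 pairs, although the groups overlapped, by 0.55 ± 0.08 (adjusted p = 0.00113), and by 0.53 (adjusted p = 0.00536) without replicate 4. COPA, the alpha subunit, differed by -0.23 ± 0.12 (adjusted p = 0.231) and ARCN1, the delta subunit, by -0.14 ± 0.12 (adjusted p = 0.483).

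**Figure D1:**
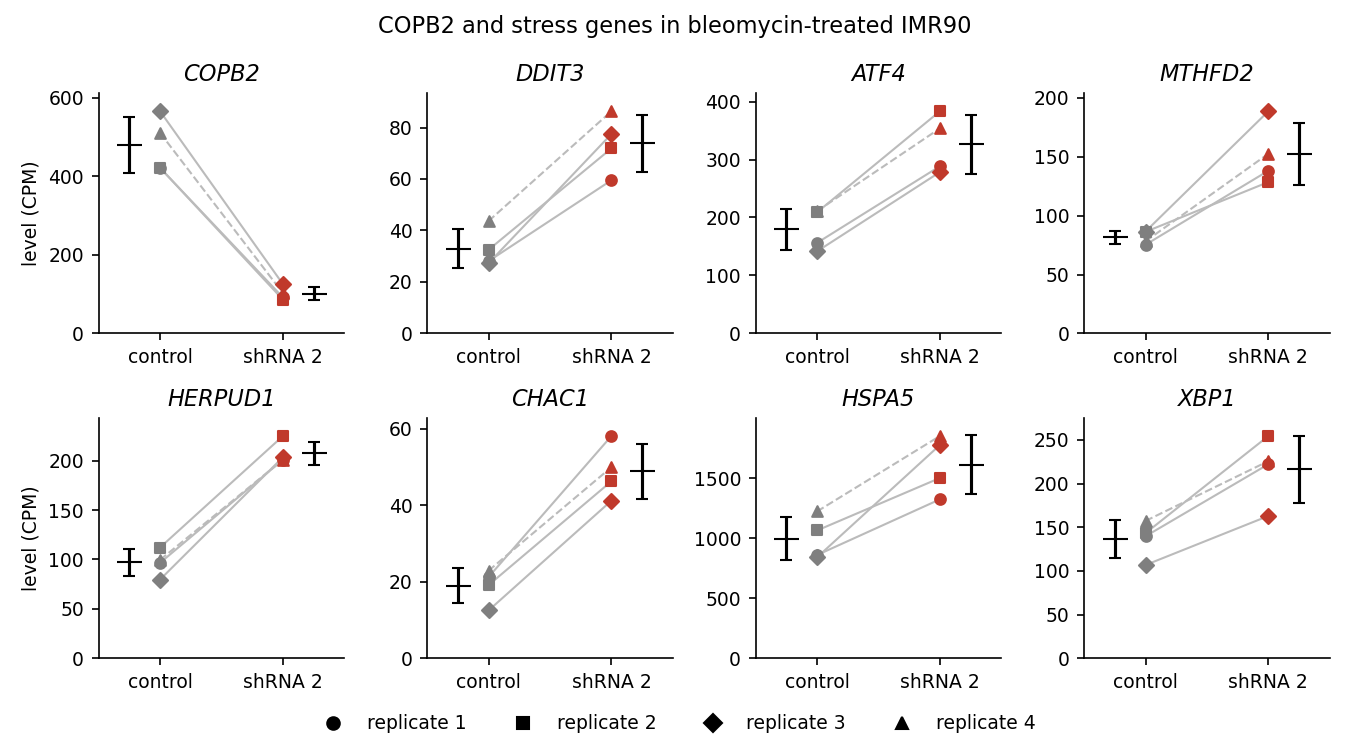
Level (CPM, linear axis from 0) of COPB2 and 7 stress genes in the 4 control and 4 shRNA 2 libraries of bleomycin-treated IMR90. Each symbol is a replicate, lines join same-numbered replicates (dashed for replicate 4), and bars beside the points give mean ± SD; COPB2 fell and the other 7 genes rose in all 4 pairs.

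Across the transcriptome 14783 genes were tested, in a fit of all 24 IMR90 libraries with the replicate number as a block within each treatment. With a gene called at an adjusted p under 0.05, 433 genes were higher with shRNA 2 (2.93% of those tested) and 229 were lower (1.55%). Changes were mostly modest, and 45 of the 662 called genes changed at least 2-fold. Without replicate 4 of both groups 217 genes were called higher (1.46%) and 87 lower (0.584%). Of the 662 genes, 257 were called in both. All 662 kept their direction, which is largely given, since pairs 1 to 3 also served to call them. The count fell to 304 without replicate 2, with 263 genes shared, and rose to 2088 without replicate 3, with 599 shared. Among called genes, 425 of the 433 were higher in all 4 pairs, as were 1779 of all 14783 genes tested, and 226 of the 229 were lower in all 4, as were 1864 of all genes tested. The levels of the 2 groups did not overlap for 110 of the 433, against 1.12% of all genes tested, and for 51 of the 229, against 0.771%. The genes were called from these same pairs, so these counts describe them and are no separate support. The 8 libraries held between 15771259 and 19264068 counts, so 3 counts stood for 0.156 to 0.190 CPM.

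The number of calls rests on the libraries that share the estimate of spread. The common biological coefficient of variation was 0.154 among the 12 bleomycin libraries and 0.0782 among the 12 DMSO libraries, and the joint fit used 0.123. The joint value was below that of the bleomycin libraries, so adjusted p from the joint fit may be too small for this comparison. With the 8 compared libraries alone, 22 of 13956 genes passed as higher (0.158%) and 1 as lower (0.00717%), and 21 of them belonged to the 662. The genes called in the joint fit, without replicate 4 and with the 8 libraries alone were ADM2, MFSD2A, CTH, CHAC1, TRIB3, PCK2, DDIT3, IL13RA2, EIF4EBP1, HERPUD1, MT1X, SMCO4, DNAJB9, MTHFD2, ATF4, DDIT4, IER3, CDK2AP2, PNP, SHMT2 and COPB2, a set named after its values were seen.

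Transcript length moved with the difference between the groups. In the shortest quartile of genes (longest coding transcript up to 2295 bases) the median log2 difference was 0.07, 0.52, -0.07 and 0.23 in pairs 1 to 4, and in the longest quartile (from 5572 bases) it was -0.09, -0.45, 0.05 and -0.27. Pairs 1, 2 and 4 thus leaned towards short transcripts and pair 3 slightly the other way. Of the called genes, 211 higher and 6 lower were in the shortest quartile, and 12 higher and 109 lower in the longest. Length and GC content were therefore entered as a correction for each library, an alternative chosen after seeing the data, for the 13312 genes with an annotated coding transcript. With this correction 636 genes passed as higher (4.78%) and 368 as lower (2.76%), and 488 of them were among the 662. These 488 kept their direction, which is largely given for genes called in 2 fits of the same libraries. Without replicate 4 the corrected fit called 465 higher (3.50%) and 300 lower (2.26%). Called in all 4 of these fits were 207 genes, 160 higher and 47 lower.

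**Figure D2:**
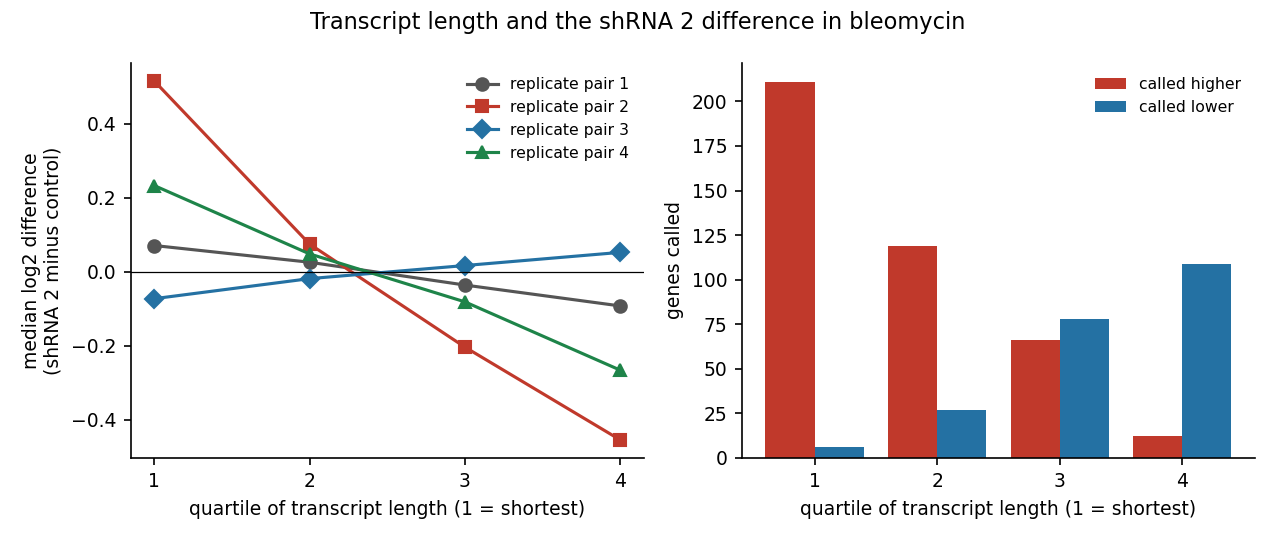
Left, median log2 difference (shRNA 2 minus control) in each replicate pair by quartile of transcript length; right, number of genes called higher and lower in each quartile. Pair 2 ran from 0.52 in the shortest quartile to -0.45 in the longest, and 109 of the called lower genes were in the longest.

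Genes of the PERK and ATF4 arm were called higher in number. Of 69 genes tested in 5 lists (kinases and transcription factors, further ATF4 and CHOP targets, amino acid synthesis, amino acid transporters and tRNA synthetases), 34 were called higher and 1 lower, where 2.93% and 1.55% of all genes tested were, and 42 were higher in all 4 pairs. Their median log2 fold change was 0.38, against 0.00 over all genes tested. Without replicate 4, 32 were called higher and 0 lower (median 0.45), with the length and GC correction 44 higher and 0 lower (median 0.42), and with both 43 higher (median 0.43). With the 8 libraries alone 9 were called.

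Among the transcription factors, DDIT3 (CHOP) stood at 59.5, 71.9, 77.5 and 86.3 CPM with shRNA 2 and at 28.1, 32.5, 27.3 and 43.7 CPM with the control shRNA. Each library with the hairpin was above every control library. The change was 1.18 ± 0.11 (2.27-fold, adjusted p = 5.73e-06), 1.25 without replicate 4 and 0.95 with the length and GC correction. The DDIT3 locus on the minus strand of chromosome 12 overlaps MARS1 on the opposite strand, and MARS1 rose less, by 0.34. ATF4 itself stood at 288, 383, 278 and 354 CPM against 156, 209, 142 and 211 CPM, again without overlap. It rose by 0.87 ± 0.09 (adjusted p = 2.62e-05), and by 0.91 without replicate 4. CEBPG, a partner of ATF4, rose by 0.92 ± 0.14, NUPR1, a stress-induced chromatin protein, by 0.64 ± 0.12, CEBPB by 0.51 ± 0.11, and ATF3, a repressor induced by ATF4, by 0.47 ± 0.12. ATF3 lost its call without replicate 4 (adjusted p = 0.0634), and ATF3 and CEBPB lost it with the length and GC correction (adjusted p = 0.0773 and 0.0783). EIF2AK4 (GCN2), the eIF2 kinase of amino acid shortage, was the gene that fell, by 0.29 on the log2 scale, and its call was lost without replicate 4 (adjusted p = 0.0609) and with the length and GC correction (-0.13, adjusted p = 0.191).

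Further targets of ATF4 and CHOP include regulators and secreted factors. TRIB3, a pseudokinase that dampens ATF4 activity, stood at 109, 90.01, 72.7 and 87.6 CPM against 37.9, 41.7, 21.1 and 39.2 CPM in the controls. CHAC1, which breaks down glutathione, stood at 58.1, 46.3, 41.2 and 49.9 CPM against 21.2, 19.1, 12.5 and 22.9 CPM. Neither gene overlapped between groups, and they rose by 1.40 ± 0.15 (adjusted p = 4.75e-05) and 1.40 ± 0.15 (adjusted p = 2.74e-05). INHBE, an inhibin subunit made as a stress-induced secreted factor, had the largest increase of all called genes with at least 20 counts on average. It stood at 5.37, 3.07, 5.53 and 4.42 CPM against 0.635, 1.11, 0.238 and 1.65 CPM, a change of 2.41 ± 0.34 (adjusted p = 0.000719), and of 2.84 without replicate 4. ADM2, a peptide hormone, rose by 1.65 ± 0.20, DDIT4, an inhibitor of mTORC1, by 0.84 ± 0.09, and PPP1R15A (GADD34), the phosphatase subunit that reverses eIF2 phosphorylation, by 0.48 ± 0.10. In all, 6 of 16 targets in this list were called higher, and 8 without replicate 4, when GDF15 (0.62, adjusted p = 0.000632) and JDP2 (0.45, adjusted p = 0.0327) joined. With all replicates 10 had no call, and the lowest log2 fold change of the list was -0.056.

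Enzymes of serine, one-carbon, cysteine and proline synthesis had 8 of 12 genes called higher, both with and without replicate 4, and a median of 0.77. PHGDH, which commits glycolytic carbon to serine, stood at 71.9, 90.5, 54.2 and 59.4 CPM with shRNA 2 and at 25.98, 56.8, 19.4 and 36.2 CPM in the controls. It was higher in all 4 pairs, with an overlap because control replicate 2 was higher than shRNA 2 replicate 3, and rose by 1.06 ± 0.13 (adjusted p = 0.000183). PSAT1, the next enzyme of the pathway, stood at 92.02, 99.9, 118 and 103 CPM against 36.9, 69.7, 33.6 and 65.7 CPM and rose by 1.05 ± 0.15, without overlap. MTHFD2, a mitochondrial folate enzyme, stood at 138, 129, 189 and 153 CPM against 75.3, 86.3, 86.5 and 78.3 CPM. It did not overlap between groups and rose by 0.88 ± 0.08 (adjusted p = 1.37e-05). CTH, which makes cysteine, rose by 1.45 ± 0.17, SHMT2 by 0.69 ± 0.09, PYCR1 and ALDH18A1 of the proline pathway by 0.63 ± 0.09 and 0.47 ± 0.07, and GPT2 by 0.45 ± 0.09. ASNS, the asparagine synthetase, had at most 16 counts in any of the 8 libraries, and another annotated gene overlaps it on the same strand. Its own value is therefore not given. Annotated genes also overlap other named genes on the same strand, among them DDIT3 (2), HERPUD1 (2), MTHFD2 (1) and COPB1 (1).

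Amino acid transporters and tRNA synthetases followed. Of 10 transporters 6 were called higher, both with and without replicate 4 (median 0.56). SLC7A5, the light chain of a carrier of large neutral amino acids, stood at 122, 93.8, 103 and 76.4 CPM against 59.4, 74.9, 47.6 and 47.5 CPM, without overlap, and rose by 0.79 ± 0.11 (adjusted p = 0.000949). Its heavy chain SLC3A2 rose by 0.55 ± 0.08, the glycine carrier SLC6A9 by 1.15 ± 0.18, the glutamine carrier SLC1A5 by 0.57 ± 0.08, SLC1A4 by 0.90 ± 0.13 and the cationic carrier SLC7A1 by 0.72 ± 0.18. SLC38A2, the transporter of this list with the highest level, differed by -0.08 ± 0.15 (adjusted p = 0.782). Of 20 cytosolic tRNA synthetases 8 were called higher, 5 without replicate 4, with a median of 0.24 and values of 0.45 ± 0.07 for GARS1, 0.45 ± 0.08 for CARS1 and 0.39 ± 0.07 for YARS1. IARS1 differed by 0.12 ± 0.12 (adjusted p = 0.555).

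**Figure D3:**
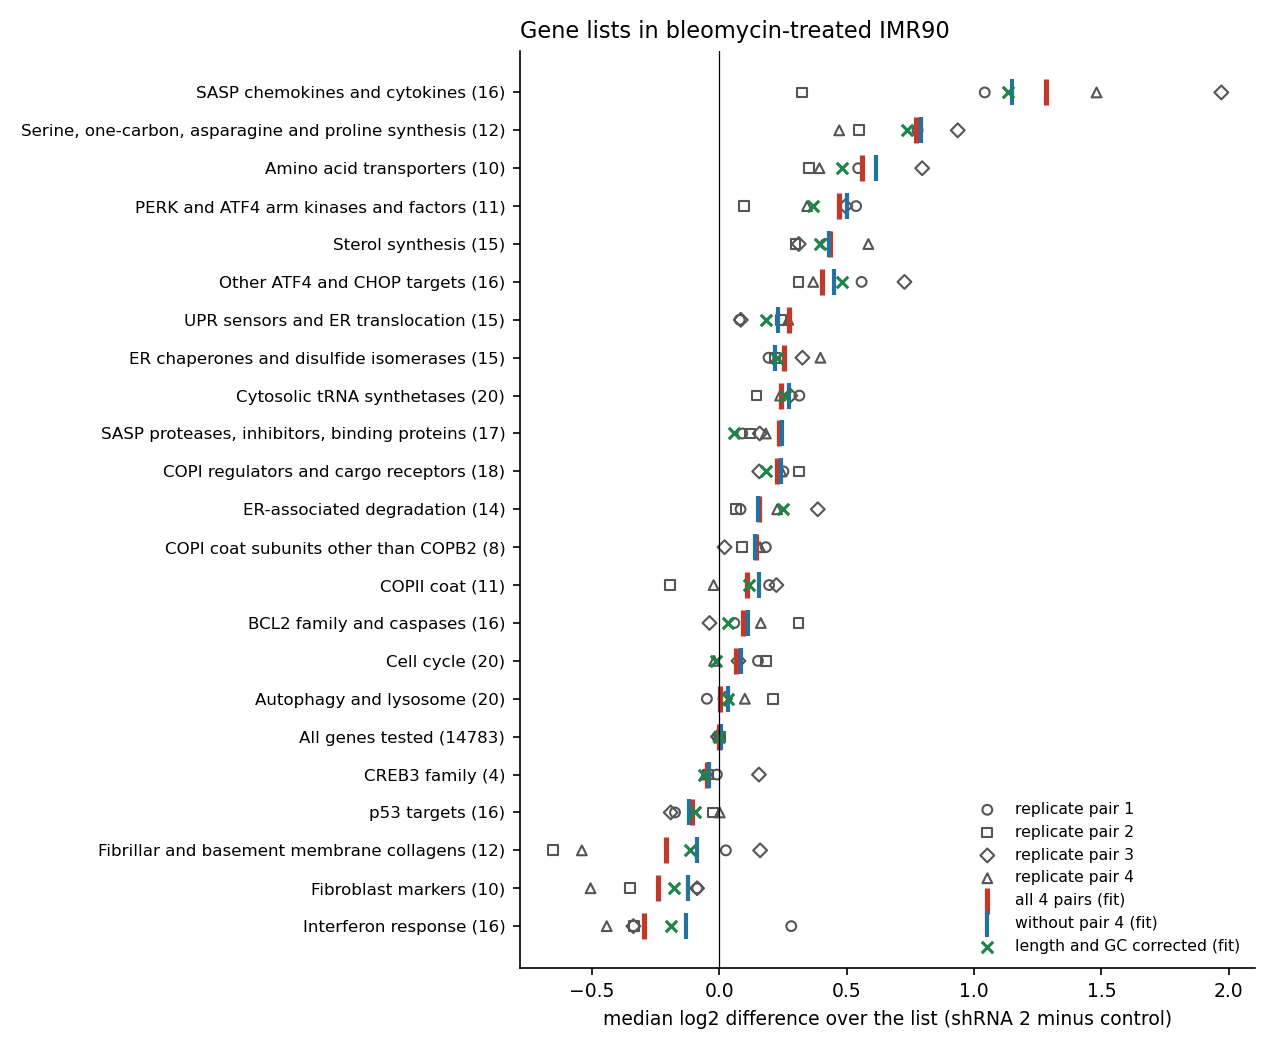
Median log2 difference (shRNA 2 minus control) over each gene list, with the number of genes tested in brackets. Open symbols give each replicate pair, bars the fit with all 4 pairs and without pair 4, and crosses the fit corrected for length and GC content; amino acid synthesis lies at 0.77 and all genes tested at 0.00.

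Targets of ATF6 and XBP1 and genes of ER-associated degradation came next. Of 44 genes in 3 lists 12 were called higher and 0 lower (median 0.23), with 22 higher in all 4 pairs. Without replicate 4, 9 were called higher, with the length and GC correction 17, with both 13, and with the 8 libraries alone 2, HERPUD1 and DNAJB9. HERPUD1, a membrane protein of the ER degradation complex, stood at 201, 225, 204 and 201 CPM with shRNA 2 and at 96.6, 112, 79.7 and 99.6 CPM with the control shRNA. Its lowest library with the hairpin lay well above its highest control. It rose by 1.11 ± 0.10 (2.15-fold, adjusted p = 5.73e-06), by 1.14 without replicate 4 and by 1.11 with the correction. HSPA5 (BiP), the main chaperone of the ER, stood at 1323, 1501, 1775 and 1850.4 CPM against 859, 1064, 839.9 and 1222 CPM. It did not overlap between groups and rose by 0.70 ± 0.10 (adjusted p = 0.000949). XBP1 stood at 222, 254, 163 and 226 CPM against 139.6, 143, 107 and 157 CPM, also without overlap, and rose by 0.66 ± 0.08 (adjusted p = 0.000144). These counts do not separate spliced from unspliced XBP1 mRNA.

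The remaining members of these lists with a call were chaperones and co-factors. DNAJB9, an ER co-chaperone, rose by 0.89 ± 0.13, SDF2L1 by 0.90 ± 0.18, MANF, a secreted ER stress factor, by 0.71 ± 0.12, CRELD2 by 0.43 ± 0.11 and calreticulin (CALR) by 0.36 ± 0.08. Of the degradation genes, DERL3 rose from 0.683 ± 0.312 to 1.92 ± 0.742 CPM, SELENOS by 0.56 ± 0.12 and the ubiquitin ligase SYVN1 by 0.44 ± 0.13. SRP54 of the signal recognition particle rose by 0.27 ± 0.07. The calls of CRELD2, SYVN1 and SRP54 were lost without replicate 4 (adjusted p = 0.1, 0.0679 and 0.144). With the length and GC correction CRELD2 stood at 0.23 and SRP54 at 0.21, also without a call (adjusted p = 0.0562 and 0.0552). The corrected values of SDF2L1, MANF and CALR were smaller, 0.53, 0.46 and 0.23, and kept their calls (adjusted p = 0.00443, 0.00602 and 0.0186). P4HB, an abundant disulfide isomerase, differed by 0.12 ± 0.08 (adjusted p = 0.311), and OS9 of ER quality control by -0.05 ± 0.06 (adjusted p = 0.681).

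Promoters of 4 of these genes are shown because they carry the binding motifs known for ATF4 or for ATF6 and XBP1. Promoter sequences of 300 bases (250 before to 50 after the start, RefSeq, GRCh38.p14) were found for 120 of the 163 genes selected for naming. They were searched on both strands for TGATGNAAN, the core of the element bound by ATF4 with C/EBP factors, for the ER stress response element (CCAAT and CCACG separated by 9 bases), for its second form (ATTGG and CCACG separated by 1 base) and for TGACGTGG, an XBP1 element. Read on the other strand, the XBP1 element contains CCACG and can overlap a stress element. Motifs are in capitals, each sequence runs 5′ to 3′ along the gene, and the start site follows base 250.
CHAC1, plus strand, chr15:40953221-40953520: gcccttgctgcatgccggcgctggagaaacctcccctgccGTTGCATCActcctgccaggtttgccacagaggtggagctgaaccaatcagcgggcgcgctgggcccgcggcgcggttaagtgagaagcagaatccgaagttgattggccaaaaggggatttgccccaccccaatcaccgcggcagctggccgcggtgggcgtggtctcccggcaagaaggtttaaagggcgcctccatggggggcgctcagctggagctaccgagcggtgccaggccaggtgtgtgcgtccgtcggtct
HERPUD1, plus strand, chr16:56931892-56932191: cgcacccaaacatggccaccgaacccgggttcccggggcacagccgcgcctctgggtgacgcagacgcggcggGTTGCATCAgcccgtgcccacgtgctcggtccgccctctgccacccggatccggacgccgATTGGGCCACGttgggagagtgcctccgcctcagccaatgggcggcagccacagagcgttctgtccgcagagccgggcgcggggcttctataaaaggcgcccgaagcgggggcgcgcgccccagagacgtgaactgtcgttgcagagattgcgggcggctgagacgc
HSPA5, minus strand, chr9:125241294-125241593: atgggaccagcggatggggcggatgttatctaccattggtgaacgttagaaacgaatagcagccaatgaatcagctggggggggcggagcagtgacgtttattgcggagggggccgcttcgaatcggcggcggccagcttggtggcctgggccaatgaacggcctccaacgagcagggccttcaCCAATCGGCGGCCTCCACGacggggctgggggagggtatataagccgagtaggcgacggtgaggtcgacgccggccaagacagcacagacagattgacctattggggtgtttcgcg
XBP1, minus strand, chr22:28800520-28800819: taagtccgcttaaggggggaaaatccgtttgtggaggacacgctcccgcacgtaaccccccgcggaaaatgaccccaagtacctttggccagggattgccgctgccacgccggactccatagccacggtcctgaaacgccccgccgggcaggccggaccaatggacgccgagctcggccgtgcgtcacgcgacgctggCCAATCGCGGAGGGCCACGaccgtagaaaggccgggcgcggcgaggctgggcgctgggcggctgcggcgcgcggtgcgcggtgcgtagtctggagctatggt
The ATF4 core lay at -210 in CHAC1 and at -177 in HERPUD1, on the strand opposite to the gene, and HERPUD1 also held the second form of the stress element at -117. HSPA5 and XBP1 held the first form at -66 and -52. The ATF4 core was in 3.67% of all 27305 promoters and in 1.81% of the 11413 promoters of tested genes. Of 54 promoters from the 5 PERK and ATF4 lists 13 held it (24.1%), as did 17 of 333 promoters of genes called higher (5.11%) and 6 of 182 of genes called lower (3.30%). The first form of the stress element was in 22 of all promoters (0.0806%) and in 14 of the 11413 (0.123%). It was in 6 of 40 from the ATF6, XBP1 and degradation lists, in 6 of the 333 and in 0 of the 182. Its second form was in 10 of the 11413 (0.0876%), in 3 of the 40, in 2 of the 333 and in 0 of the 182. The XBP1 element was in 105 of the 11413 (0.920%), in 2 of the 40, in 11 of the 333 and in 1 of the 182. The lists gather genes known for these pathways, so their shares describe the choice of members. List members that were called higher are also counted among the 333. A match describes letters in this window only.

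Genes that work with the COPI coat changed in part. Of 18 regulators and cargo receptors, 6 were called higher and 0 lower, 3 of them without replicate 4, and 11 were higher in all 4 pairs (median 0.22). ARF4, a small GTPase of the early Golgi, stood at 724, 984, 730.2 and 688 CPM against 524, 648, 540.2 and 428 CPM. Every library with shRNA 2 was above every control, with a change of 0.55 ± 0.07 (adjusted p = 0.000583), and of 0.36 with the length and GC correction, where the call was lost without replicate 4 (adjusted p = 0.056). ARFGAP1, which triggers GTP hydrolysis on ARF1, rose by 0.37 ± 0.09, the cargo receptor TMED3 by 0.41 ± 0.11, and the receptors KDELR3 and KDELR2, which return ER residents from the Golgi, by 0.39 ± 0.08 and 0.28 ± 0.07. The calls of TMED3, KDELR3 and KDELR2 were lost without replicate 4 (adjusted p = 0.118, 0.057 and 0.106). The value of TMED3 was 0.74 with the length and GC correction, without a call (adjusted p = 0.0611). CREB3, a membrane-bound transcription factor released at the Golgi, stood at 273, 365, 203 and 201 CPM against 195, 210.1, 154 and 154 CPM. It was higher in all 4 pairs and rose by 0.52 ± 0.09 (adjusted p = 0.0026), and by 0.33 with the correction, while CREB3L1 and CREB3L2 of the same family differed by -0.17 ± 0.08 and -0.24 ± 0.14 without a call. Of 11 COPII coat genes, which act in the outward step from the ER, SEC13 was called (0.28 ± 0.08) and 0 of the 11 passed without replicate 4 in edgeR (adjusted p = 0.101 for SEC13). With the length and GC correction SEC13 stood at 0.11 and lost its call (adjusted p = 0.155), while 3 others, SAR1A, SAR1B and SEC23B, named after their values were seen, were called higher.

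Of 15 sterol synthesis genes 9 were called higher and 0 lower, with 11 higher in all 4 pairs and a median of 0.44. Without replicate 4, 5 were called, and with the length and GC correction 10. INSIG1, the ER anchor of the sterol sensor, stood at 69.4, 45.04, 79.01 and 56.7 CPM against 42.6, 31.5, 46.5 and 25.4 CPM. It was higher in all 4 pairs and rose by 0.77 ± 0.12 (adjusted p = 0.00175). MVD, of the mevalonate pathway, rose by 0.78 ± 0.12, FDPS by 0.59 ± 0.12, squalene epoxidase SQLE by 0.57 ± 0.09 and HMGCS1 by 0.51 ± 0.11. IDI1 rose by 0.58 ± 0.11 and FDFT1 by 0.42 ± 0.10. With the length and GC correction MVD stood at 0.58 and FDPS at 0.40, while INSIG1 stood at 0.79 and HMGCS1 at 0.61. The calls of HMGCS1, IDI1 and FDFT1 were lost without replicate 4 (adjusted p = 0.0646, 0.0527 and 0.0585). SREBF2, the factor that controls the list, differed by 0.03 ± 0.09 (adjusted p = 0.871).

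Chemokines and cytokines of the SASP recruit and activate immune cells. The median over 16 genes was 1.28, with pair medians of 1.04, 0.32, 1.97 and 1.48, and 11 were higher in all 4 pairs. CXCL8 (interleukin 8) stood at 239, 62.8, 229.6 and 4666 CPM with shRNA 2 and at 107, 39.6, 42.5 and 1219 CPM with the control shRNA. Replicate 4 was the highest of both groups by a wide margin, so the groups overlapped although each pair moved up. The change was 1.58 ± 0.41 (adjusted p = 0.0377), and 1.53 (adjusted p = 0.0327) without replicate 4. CXCL2 stood at 4.39, 2.25, 3.54 and 109 CPM against 1.16, 1.84, 0.475 and 33.5 CPM and rose by 1.81 ± 0.43 (adjusted p = 0.0258). These were the 2 called genes of the list. CXCL1 stood at 68.9, 51.04, 42.4 and 2251 CPM against 33.7, 41.3, 7.60 and 938 CPM and differed by 1.29 ± 0.40 (adjusted p = 0.0701). Without replicate 4, 6 were called, with CXCL3 (1.51), IL6 (1.23), IL11 (0.66) and CSF3 (2.59) added.

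The cytokine calls depended on the fit. With the length and GC correction 0 of 16 were called with all replicates, in edgeR, where adjusted p was 0.171 for CXCL8 and 0.0655 for CXCL2, and 1 without replicate 4. DESeq2 called 5 of the 16, where it called 892 of all 14783 genes higher and 533 lower. The 8 libraries alone called 1, CSF3. IL6 stood at 49.2, 26.4, 30.1 and 551 CPM against 21.7, 19.8, 7.60 and 199 CPM, a difference of 1.28 ± 0.38 (adjusted p = 0.0604). With shRNA 1 in bleomycin, set against the same controls, CXCL8 stood at 90.8, 82.4, 42.7 and 9377 CPM. IL6 stood at 13.1, 23.2, 7.59 and 1048 CPM with shRNA 1. Replicate 1 with shRNA 1 was thus below its control for both genes. In replicate 3 CXCL8 with shRNA 1 stood beside its control, at 42.7 against 42.5 CPM, and IL6 at 7.59 against 7.60 CPM. Replicate 2 stood at 82.4 against 39.6 CPM and 23.2 against 19.8 CPM, and replicate 4 at 9377 against 1219 CPM and 1048 against 199 CPM. Over all 4 replicates the median of the 16 genes was 0.89 with shRNA 1, and it was not taken without replicate 4. Between the hairpins 0 of the 16 were called in the fit of 24 libraries. In DMSO-treated cells CXCL8 was at 1.96 ± 1.13 CPM with shRNA 2 and 1.62 ± 0.521 CPM with the control shRNA (SD, n = 4). Proteases, inhibitors and binding proteins of the SASP had 0 of 17 genes called (median 0.23, and 0.06 with the correction), with 1 called without replicate 4, SERPINB2 (0.44, adjusted p = 0.0431). The correction called 1 of the 17 higher and 1 lower, and 2 higher and 1 lower without replicate 4, and DESeq2 called 2 higher and 2 lower.

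**Figure D4:**
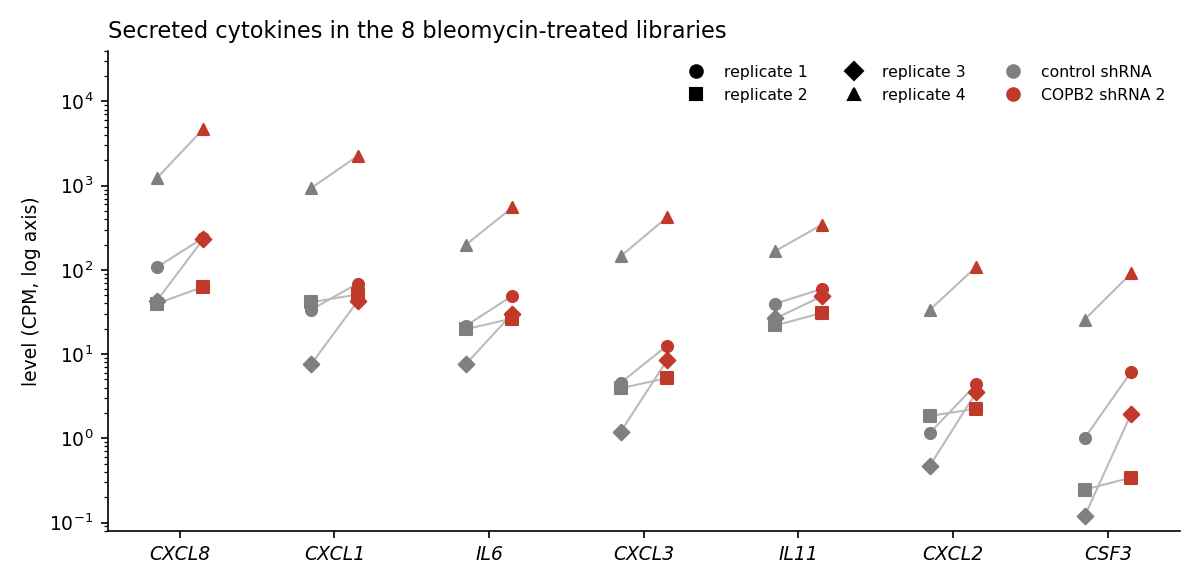
Level (CPM, log axis) of 7 SASP cytokines in the 8 bleomycin-treated libraries, grey for the control shRNA and red for shRNA 2, with lines joining same-numbered replicates. All 7 rose in each of the 4 pairs, and replicate 4 lay above the other replicates in both groups.

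Among the 20 largest increases were also genes outside the lists. MFSD2A, a lipid carrier, stood at 21.03, 20.4, 20.6 and 22.7 CPM against 8.25, 6.88, 5.88 and 10.03 CPM, without overlap, and rose by 1.49 ± 0.18 (adjusted p = 0.000207). PCK2, the mitochondrial form of PEP carboxykinase, rose by 1.24 ± 0.13 and EIF4EBP1, a repressor of cap-dependent translation, by 1.13 ± 0.18. With the length and GC correction PCK2 stood at 1.13 and EIF4EBP1 at 0.76. IL13RA2, a decoy receptor for interleukin 13, rose by 1.15 ± 0.22 and, like the cytokines, was highest in replicate 4, at 67.7 CPM with shRNA 2 and 30.98 CPM in the control. MEI1, C16orf71, C19orf81 and BEX2 rose by between 1.36 and 1.54 from low levels, at most 1.90 CPM in any control library. The call of C19orf81 and that of BEX2 were lost without replicate 4 (adjusted p = 0.0527 and 0.164).

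Decreases were taken by the same rule. After COPB2, the 19 next in size ranged from -1.51 to -0.76 in the fit of 24 libraries. ANKRD33B stood at 6.99, 4.36, 9.01 and 5.09 CPM with shRNA 2 and at 12.7, 13.1, 14.9 and 10.3 CPM in the controls. The groups did not overlap, and the gene fell by 1.01 on the log2 scale (adjusted p = 0.0011). GBP1, an interferon-induced GTPase, stood at 6.34, 12.4, 8.90 and 8.78 CPM against 12.4, 15.5, 20.7 and 17.6 CPM. It was lower in all 4 pairs and fell by 0.88 (adjusted p = 0.00144). LRRTM2 changed by -1.21 ± 0.22, MRVI1 by -0.99 ± 0.20, AQP3, a water and glycerol channel, by -0.76 ± 0.14, and FMO2 by -1.51 ± 0.40. FMO2 was lower in 3 of 4 pairs. Calls of LOC100507516, PCDHGA9, ADA2, PIK3R3, SETBP1, SEC31B, NIBAN3, ZNF852, PLCE1 and PPL were lost without replicate 4. With the length and GC correction ADA2 lost its call (adjusted p = 0.0729). Corrected values were -0.81 for ANKRD33B, -0.62 for SETBP1 and -0.59 for PLCE1. FMO2 stood at -1.51, GBP1 at -0.88 and AQP3 at -0.92 with the correction.

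Markers of cell types were checked next. Of 10 fibroblast markers, PDGFRB, a growth factor receptor, fell by 0.56 (adjusted p = 0.0283, 0.0204 without replicate 4 and 0.0723 with the length and GC correction) and the other 9 were not called in the fit of 24 libraries. With the correction 1 of the 10 was called lower, PDGFRA, and 2 without replicate 4, PDGFRB and COL3A1. DESeq2 called these 3 lower, of which PDGFRA and COL3A1 are named after their values were seen. The summed level of the 10 ranged from 15420 to 23249 CPM with shRNA 2 and from 17592 to 27804 CPM in the controls. Epithelial markers summed to between 9.93 and 54.6 CPM and 7.77 and 38.3 CPM, endothelial markers to between 8.67 and 24.0 CPM and 9.39 and 36.9 CPM, and leukocyte markers to between 73.2 and 110.5 CPM and 64.2 and 109.8 CPM. The last 3 lists had 0 called genes by edgeR, and KRT5 was at or under 3 counts in every library. Collagens had 0 of 12 called in the fit of 24 libraries, with a median of -0.21 that was -0.09 without replicate 4. COL3A1, which is in this list too, was the 1 collagen called lower by DESeq2 and by the correction without replicate 4. COL1A1 was lower in all 4 pairs, by -0.30 ± 0.18 (adjusted p = 0.288). In bulk RNA, fewer cells of a type and less RNA per cell cannot be told apart.

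Genes that mark growth arrest and senescence were checked in both groups. MKI67, a proliferation gene, ranged from 0.0681 to 0.987 CPM with shRNA 2 and from 0.212 to 1.98 CPM in the bleomycin controls, against 5.38 to 8.02 CPM in the DMSO controls. CDKN1A (p21), which holds senescent cells out of the cycle, stood at 4728, 4748, 3025 and 2621 CPM with shRNA 2 and at 4365, 3634, 3419 and 2369.8 CPM in the controls. The groups overlapped and differed by 0.12 ± 0.09 (adjusted p = 0.41). CDKN2A (p16), another inhibitor of the cycle, was no higher in the bleomycin controls, at 62.8 ± 15.4 CPM, than in the DMSO controls, at 75.7 ± 11.5 CPM, and stood at 87.2 ± 37.5 CPM with shRNA 2 (SD, n = 4 each). Of 16 p53 targets XPC, a DNA repair factor, fell by 0.29 and lost its call without replicate 4 (adjusted p = 0.0624) while 5 of the 16 were called lower with the length and GC correction. Cell cycle genes (0 of 20) and the BCL2 family and caspases (0 of 16) had no call in the fit of 24 libraries, with or without replicate 4. With the length and GC correction and without replicate 4, TYMS of the cell cycle list, named after its values were seen, was called lower. Of 16 interferon genes IRF7 rose by 0.49 ± 0.13, a call lost with the length and GC correction (adjusted p = 0.0864), and IFIT2 fell by 0.54, a call lost without replicate 4 (adjusted p = 0.0634). Of 20 autophagy and lysosome genes 3 rose: SQSTM1, the p62 receptor, by 0.31 ± 0.08, MAP1LC3B by 0.27 ± 0.07 and WIPI1 by 0.41 ± 0.09. MAP1LC3B lost its call without replicate 4 (adjusted p = 0.126).

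The same hairpin was compared with shRNA 1 in bleomycin-treated cells, to ask whether both give the same picture. shRNA 2 was higher than shRNA 1 in 631 genes (4.27%) and lower in 643 (4.35%). This count rested on the fit: with the length and GC correction 99 genes were higher (0.744%) and 74 lower (0.556%), and with the 12 bleomycin libraries alone edgeR called 0, with 3148 genes at an unadjusted p under 0.05. It was 1 gene without replicate 1, 5 without replicate 2, 4200 without replicate 3 and 1282 without replicate 4 (762 higher and 520 lower). Of the 69 genes of the PERK and ATF4 arm 14 were higher and 2 lower with shRNA 2, and with the correction 5 were higher (NUPR1, PYCR1, SLC1A4, SLC3A2 and VLDLR, the last named after its values were seen). HERPUD1 was higher by 0.48 ± 0.10 (adjusted p = 0.0304), and by 0.49 (adjusted p = 0.0203) with the correction. XBP1 was higher by 0.44 ± 0.08 (adjusted p = 0.0265), and by 0.28 (adjusted p = 0.0215) with the correction. DDIT3 was higher by 0.56 ± 0.10 (adjusted p = 0.0304) and lost its call with the correction (adjusted p = 0.142). Against the same control libraries, shRNA 1 gave 30 genes called higher and 5 lower of 14783 tested. Of these 35 genes, 30 were also called with shRNA 2, in the same direction. Both hairpins were set against the same controls, so this overlap and the likeness of the values below are partly given. The change with shRNA 1 was 0.62 ± 0.10 for DDIT3 and 0.62 ± 0.10 for HERPUD1. For CHAC1 it was 0.76 ± 0.15 and for MTHFD2 0.71 ± 0.08. List medians with shRNA 1 and shRNA 2 were 0.26 and 0.38 for the 69 PERK and ATF4 genes. They were 0.21 and 0.23 for the ATF6, XBP1 and degradation lists and 0.35 and 0.44 for sterol synthesis. For COPI regulators and cargo receptors they were 0.06 and 0.22.

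In DMSO-treated cells the median log2 fold change of the 69 PERK and ATF4 genes was 0.20, with 3 called higher. Over all genes shRNA 2 gave 7 genes called higher (0.0474%) and 3 lower (0.0203%). The higher ones were COPB1, PCK2, INHBE, SLC7A5, TCEA1, ARL1 and MTHFD2 and the lower ones COPB2, EPHA2 and CDC20, of which TCEA1, ARL1, EPHA2 and CDC20 are named after their values were seen. Of the 433 genes higher in bleomycin, 335 had the same sign in DMSO, with a median of 0.11 against 0.49, as had 162 of the 229 lower genes. These genes were picked by their bleomycin values, so a larger median there was largely given. Over all genes tested 50.5% were above 0 in DMSO. The difference of the effect between bleomycin and DMSO gave 0 called genes (0%) by edgeR, 2106 at an unadjusted p under 0.05, and 39 by DESeq2. It was 0.76 ± 0.15 for DDIT3 (adjusted p = 0.23), 0.74 ± 0.14 for HERPUD1 (adjusted p = 0.23) and 0.57 ± 0.14 for HSPA5 (adjusted p = 0.254). These 3 were among the 39 of DESeq2, at adjusted p of 0.00386, 0.00386 and 0.0298.

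Senescent ER:RAS cells given 4OHT had their own controls and 3 libraries a group. There shRNA 2 gave 100 genes called higher (0.699%) and 37 lower (0.259%) of 14297. Of the 432 genes higher in bleomycin that were tested, 356 had the same sign and 36 were called higher, and of 228 lower genes 183 had the same sign and 4 were called lower. Over all shared genes 42.2% were above 0. The gene called in both with opposite signs was TFPI2, an inhibitor of serine proteases, named after its values were seen, at -0.95 in ER:RAS cells. COPB2 changed there by -2.08 ± 0.15 (adjusted p = 9.03e-05). DDIT3 was at 145 ± 60.8 CPM against 24.04 ± 1.63 CPM, a change of 2.49 ± 0.20 (adjusted p = 0.000183). INHBE changed by 4.89 ± 0.48, HSPA5 by 1.98 ± 0.18 and HERPUD1 by 1.61 ± 0.16. Of the 16 cytokines 15 were below 0, with a median of -0.35 and CCL2, CCL7 and IL11 called lower.

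**Figure D5:**
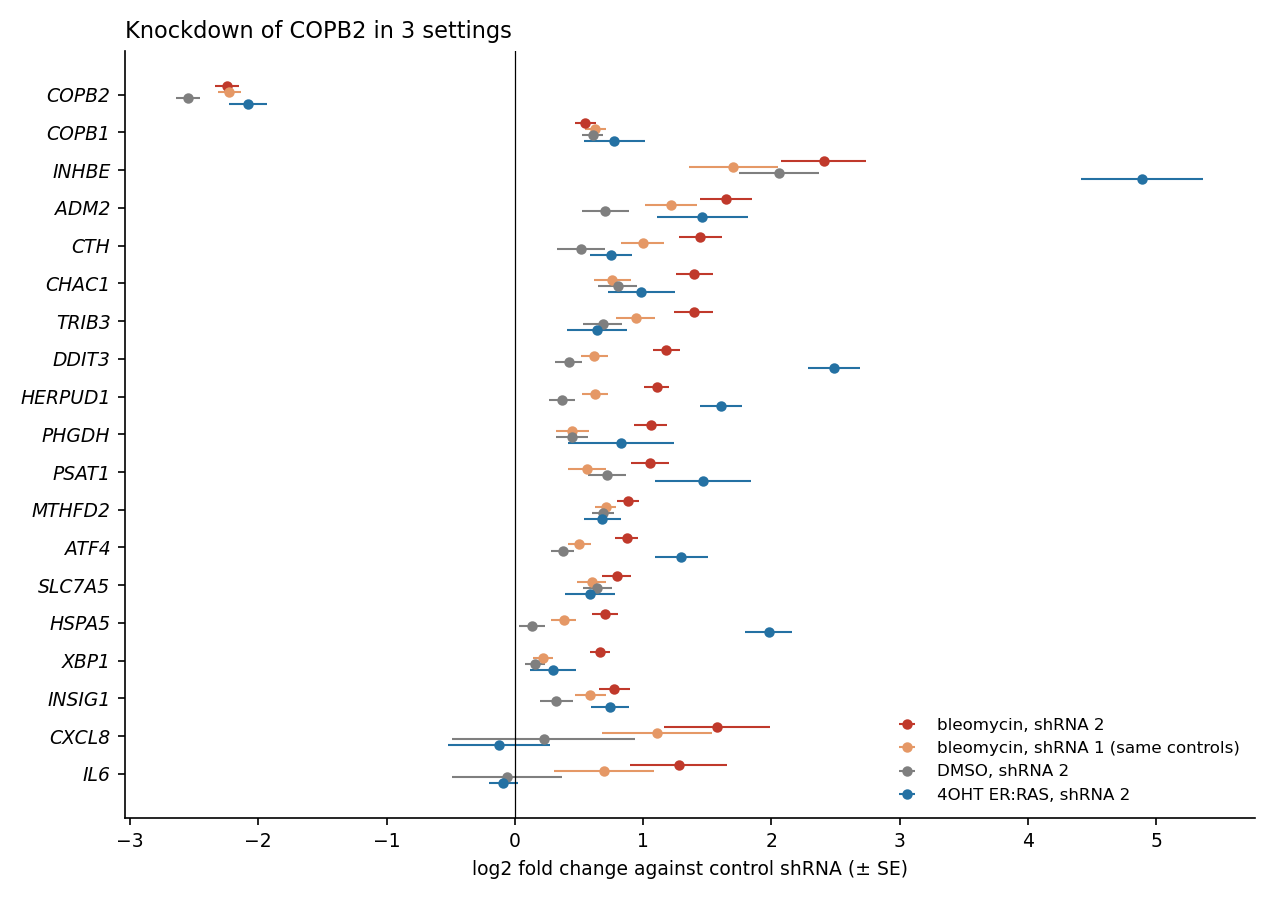
Log2 fold change against the control shRNA (± SE) of 19 genes with shRNA 2 in bleomycin, with shRNA 1 in bleomycin (against the same control libraries), with shRNA 2 in DMSO and with shRNA 2 in 4OHT-treated ER:RAS cells. DDIT3 lies at 1.18 in bleomycin, 0.42 in DMSO and 2.49 in ER:RAS cells, and CXCL8 at 1.58, 0.22 and -0.12.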

How the data were processed

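The deposited table held whole-number counts of reads per gene for 42 libraries, made by the authors and not normalised, and all 42 columns were used. Accounts of how it was made differ: the study's methods name Tophat, hg19 and Ensembl genes, and the submitters' processing notes name DRAGEN, STAR 2.7.8a, hg38 and DESeq2 1.32.0. The strand setting of the counting is not given in the sources used here. Members and gene lists were chosen with earlier results of these data known.

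Genes passing filterByExpr of edgeR 4.0.16 (R 4.3.3, minimum count 10) were scaled by TMM and tested with the quasi-likelihood test, with Benjamini-Hochberg adjustment and a threshold of 0.05, in 24 IMR90 libraries with the replicate number as a block within treatment. Same-numbered libraries of the 2 groups deviated together from their group means (Pearson r = 0.42, 0.75, 0.68 and 0.78 over genes). Unlike-numbered ones gave -0.66 to 0.30. In DMSO the same-numbered values were 0.73, 0.34, 0.65 and 0.18, and the unlike-numbered ones -0.57 to 0.25. The numbers were therefore treated as pairs, on weaker grounds in DMSO. All 18 ER:RAS libraries were fitted together, separately from IMR90. DESeq2 1.42.0 was an alternative. CPM are counts over TMM-scaled library totals, and the floor of 3 counts uses unscaled totals and covers counting error only. The length and GC correction and the fit of the 12 bleomycin libraries were chosen after seeing the data. Named genes were the 20 largest increases and decreases among called genes averaging 20 counts or more in the 8 libraries, 5 marker genes, and from each of 25 lists the called members, those called without replicate 4 and the 3 with the highest mean CPM. Values of some list members are not reported here.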

Additional observations from a re-analysis of the deposited data

Results flagged for a closer look

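In a group of 4 libraries a value was singled out where its gap to the nearest other library, as a share of the group's range, passed Dixon's 95% critical value. Of 248 groups examined 9 passed, where chance alone gives about 1 in 20. Among the libraries with shRNA 2, replicate 2 was the highest for HERPUD1 (225 CPM, share 0.886), ARF4 (984 CPM, share 0.833) and COL1A1 (3616 CPM, share 0.870), and replicate 4 for CXCL1 (2251 CPM, share 0.878) and CXCL2 (109 CPM, share 0.832). Among the control libraries, replicate 2 was the highest for COPA (660.4 CPM, share 0.866) and KDELR2 (655 CPM, share 0.874), and replicate 3 was the lowest for SYVN1 (41.2 CPM, share 0.838) and TRIB3 (21.1 CPM, share 0.858).

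For 7 genes every pair of bleomycin-treated libraries moved up with shRNA 2 and every pair of ER:RAS libraries moved down, and this difference was not tested. The log2 fold change was 1.62 in bleomycin and -0.40 in ER:RAS cells for CXCL3, 1.29 and -0.42 for CXCL1, 0.73 and -0.66 for IL11, 0.55 and -0.51 for SERPINB2, 0.81 and -0.37 for IER3, 1.05 and -0.77 for MT1X, and 0.67 and -0.95 for TFPI2.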

How the results depend on the processing

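The direction of the 99 called genes whose values are given held under every alternative that gave a value. C16orf71, LOC100507516 and MRVI1 have no value with the length and GC correction. These alternatives refit libraries that also served to call the genes, so a kept direction was largely given. The number of calls did not hold. Against 662 genes with the replicate block within treatment, 11 were called with no replicate block, 28 with 1 replicate block across both treatments, 23 with the 8 compared libraries, 18 with the 12 bleomycin libraries, 1425 by DESeq2 and 1004 with the length and GC correction, and leaving out 1 replicate gave 304 to 2088. For shRNA 2 against shRNA 1, 1274 genes became 0 with no replicate block, 0 with 1 replicate block across both treatments, 0 with the 12 bleomycin libraries, 741 with no filter on low counts, 2939 by DESeq2, 173 with the correction, and 1 to 4200 with 1 replicate left out. The difference between bleomycin and DMSO had 0 calls by edgeR, 39 by DESeq2 and 0 to 1 with 1 replicate left out. The 40 genes called the same way in ER:RAS cells became 15 with no replicate block and 10 to 89 with 1 replicate left out. The median of SASP proteases was 0.29 with no replicate block and 0.056 with the correction. The cause of these shifts was not tested.

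Genes without a call that changed sign were CCL2 (-0.051), CDKN1A (-0.0064) and SLC38A2 (0.034) with the correction and without replicate 4, CDC20 (-0.051 with the correction and -0.048 also without replicate 4) and EPHA2 (0.010 with the correction). With 1 replicate left out, ARCN1 ranged from -0.26 to 0.059, EPHA2 from -0.062 to 0.032, IARS1 from -0.010 to 0.32 and SREBF2 from -0.041 to 0.091. The 12-library, length and GC alternatives were chosen after seeing the data.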
